A study of Mus musculus with 502 samples.

Results

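The 8 genes described here carry peptides to MHC class I, the surface molecules through which nearly every nucleated cell shows fragments of its own proteins to Cd8+ T cells. They were chosen by symbol from a published count table of single kidney leukocytes: B2m, H2-D1, H2-K1, Tap1, Tap2, Tapbp, Psmb8 and Psmb9. All 8 were found among 46603 gene rows. The study asked whether kidneys kept cold in a transplant preservative still give single-cell transcriptomes like those of fresh tissue. Intact kidneys of CD1 wild type mice of about 3 weeks, an outbred stock, were dissociated fresh or after 6 h or 1, 2, 3 or 4 days in HTS-FRS solution at 4 °C, and live (propidium iodide negative) Cd45+ cells, that is leukocytes, were sorted. No group carried a transgene or received a drug, and the kidneys or half-kidneys combined for a sort came from the same mouse.

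There were 502 cells. The cell labels carry a code, IM793, IM834 or IM790, which is taken here as a library pool. Pool IM793 held 75 fresh cells, 76 cells at 6 h and 78 at day 2. Pool IM834 held 81 fresh cells and 75, 82 and 19 cells of days 1, 3 and 4, and the other 16 day 4 cells carried the codes IM790 and IM793. Since no label names an animal, a timepoint counts as 1 sample and its cells are not replicates of it. Preserved cells were set beside fresh cells of the same pool.

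Class I molecules are built in steps that map onto these genes. Psmb8 and Psmb9 encode catalytic subunits of the immunoproteasome, which replaces the standard proteasome in immune cells and after interferon and cuts proteins into peptides. Tap1 and Tap2 form the transporter that moves peptides into the endoplasmic reticulum, and Tapbp (tapasin) holds the transporter next to empty class I molecules. H2-K1 and H2-D1 encode classical heavy chains, and B2m encodes beta-2-microglobulin, the light chain that every classical heavy chain needs. All leukocytes use this pathway, and interferon gamma raises most of its genes together.

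On GRCm38, with GENCODE gene models, B2m lies on chromosome 2 (chr2:122147686-122153083, plus strand). The other 7 genes lie in the major histocompatibility complex on chromosome 17. In order along it are Tapbp (chr17:33915899-33929292, plus strand), H2-K1 (chr17:33996017-34000347, minus strand), Psmb9 (chr17:34181987-34187764, minus strand), Tap1 (chr17:34187553-34197225, plus strand), Psmb8 (chr17:34197721-34201454, plus strand), Tap2 (chr17:34203527-34216321, plus strand) and H2-D1 (chr17:35262730-35267499, plus strand). Psmb9 and Tap1 start head to head and share the bases from 34187553 to 34187764. Counting ignored the strand, so reads in that stretch cannot be assigned to 1 of the pair, and both values carry that uncertainty. H2-K1 and H2-D1 belong to a family of near-identical class I genes, and the reads were aligned to the genome of another strain than CD1. How far this moved reads among class I genes was not tested.

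The RefSeq promoter table for GRCm38.p6 held 7 of the 8 genes, all but Tap2. The 250 bases before each start were searched on both strands for 5 motifs: GAAANNGAA (core of the IRF element), GGGNNTTCC (an NF-kB type core), TTCNNNGAA (the GAS element), CCAAT and TGACG (a CRE type core). The first 2 sequences are shown in full because B2m is the gene that separated cell types below and H2-K1 is the heavy chain gene whose share varied between cell types. Capitals mark motif matches, and sequences run 5′ to 3′ on the gene's strand. The B2m window (chr2:122147437-122147686, plus strand) and the H2-K1 window (chr17:34000348-34000597, minus strand) read:
B2m: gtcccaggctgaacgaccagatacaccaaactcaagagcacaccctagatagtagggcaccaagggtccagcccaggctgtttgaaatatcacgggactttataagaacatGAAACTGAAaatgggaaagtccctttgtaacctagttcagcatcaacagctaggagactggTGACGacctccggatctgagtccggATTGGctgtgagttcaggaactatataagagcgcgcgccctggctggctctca
H2-K1: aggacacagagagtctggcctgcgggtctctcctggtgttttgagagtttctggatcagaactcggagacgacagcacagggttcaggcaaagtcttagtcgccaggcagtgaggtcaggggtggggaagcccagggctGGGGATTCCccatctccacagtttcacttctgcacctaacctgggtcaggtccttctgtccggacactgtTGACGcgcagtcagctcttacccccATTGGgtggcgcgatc

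The 30 bases around 1 match follow for H2-K1 (chr17:34000439-34000468, minus strand) and H2-D1 (chr17:35262913-35262942, plus strand), to show how alike the heavy chain genes are, and for Tap1 (chr17:34187458-34187487, plus strand), where the match is the same 5 bases of the genome as the TGACG match of Psmb9:
H2-K1: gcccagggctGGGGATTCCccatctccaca
H2-D1: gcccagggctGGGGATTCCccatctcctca
Tap1: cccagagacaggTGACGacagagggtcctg

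H2-K1 and H2-D1 were identical at 29 of these 30 bases. The starts are those of RefSeq, and the windows of H2-D1, Psmb8, Tap1 and Psmb9 lie wholly within GENCODE exons of the same gene or, for Tap1 and Psmb9, of the same pair of genes. GGGNNTTCC was present before H2-K1 and H2-D1 and in 4.98% of all 32851 promoter windows of this length, and GAAANNGAA was present before B2m and in 7.13% of all. TTCNNNGAA was found before Psmb8 alone and in 7.02% of all windows. CCAAT occurred in 7 of the 8 windows of these genes (H2-K1 has 2 listed starts) and in 33.8% of all, and TGACG in 6 of 8 and in 17.8% of all. These counts take some sites more than once: the windows of Tap1 and Psmb9 overlap and hold the same CCAAT and the same TGACG match, and so do both windows of H2-K1. A match is only a run of letters, and no binding was measured.

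Cells were sorted in the data into gates by the reads of 5 genes, with a minimum of 10 reads. The T gate held cells with Cd3e alone, the B gate 74 cells with Cd79a alone, the C1qb gate cells with C1qb with or without Csf1r, the Csf1r gate 72 cells with Csf1r and no C1qb, and the S100a8 gate 32 cells with S100a8 alone. Another 75 cells were under the minimum for all 5 genes and 21 fell in more than 1 gate. The listed T cell, B cell and neutrophil markers each had a read in 50% or more of the cells of the T, B and S100a8 gates, and 6 of 7 macrophage markers in the C1qb gate. In the Csf1r gate 4 of 6 monocyte markers passed that share. Markers of kidney epithelium were read in 0 to 13.5% of the cells of these gates, and red cell markers in 0 to 3.12%. Ptprc, which encodes Cd45, was read in 83.9 to 97.2% of the cells of these gates.

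The heavy chains and B2m were among the most read genes of these leukocytes. H2-D1 stood at 6927 CPM (a count scaled to the total of all gene counts in the same cells) over all cells and ranked 4 among all genes, B2m took 3341 CPM and ranked 14, and H2-K1 took 1940 CPM and ranked 30. The rest were lower, with Psmb8 at 781, Tapbp at 619, Tap1 at 350, Psmb9 at 263.9 and Tap2 lowest. Together the 8 genes held 1.44% of all gene counts.

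Per kilobase of exon, taken as the union over all GENCODE transcripts of a gene, the order at the top was reversed. B2m, a short gene, came to 3885 CPM per kb, H2-D1 to 2686 and H2-K1 to 660. Psmb8 came next, Tapbp stood at 170.6, Psmb9 at 72.1, Tap1 at 64 and Tap2 at 55.8 CPM per kb. By this length the transporter subunits were the least abundant messages, and the light chain the most abundant.

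The same division showed in single cells. H2-D1 was read in 98.2% of cells (95% exact binomial interval 96.6 to 99.2%), B2m in 97.4% (95.6 to 98.6%) and H2-K1 in 97% (95.1 to 98.3%). Psmb8 was read in 68.5%, Tapbp in 63.9%, Psmb9 in 50% (45.5 to 54.5%), Tap1 in 35.7% and Tap2 in 28.7% (24.8 to 32.9%). These intervals treat cells as independent draws and leave out the spread between animals and pools. As a background share, Ighm, an immunoglobulin gene of B cells, was read in 43.3% of the cells of the T gate, above the shares of Tap1 and Tap2 over all cells; where those reads came from was not tested.

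A cell with any read of a rarer gene usually had many. Among cells with a read, the median level was 677 rpm (the same scale within 1 cell) for Tap1, 522 rpm for Tap2 and 351 rpm for Psmb9. The median over all cells was 0 for both Tap genes. All 8 genes were read in 53 cells and none in 2, and the most frequent number was 5.

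**Figure D1:**
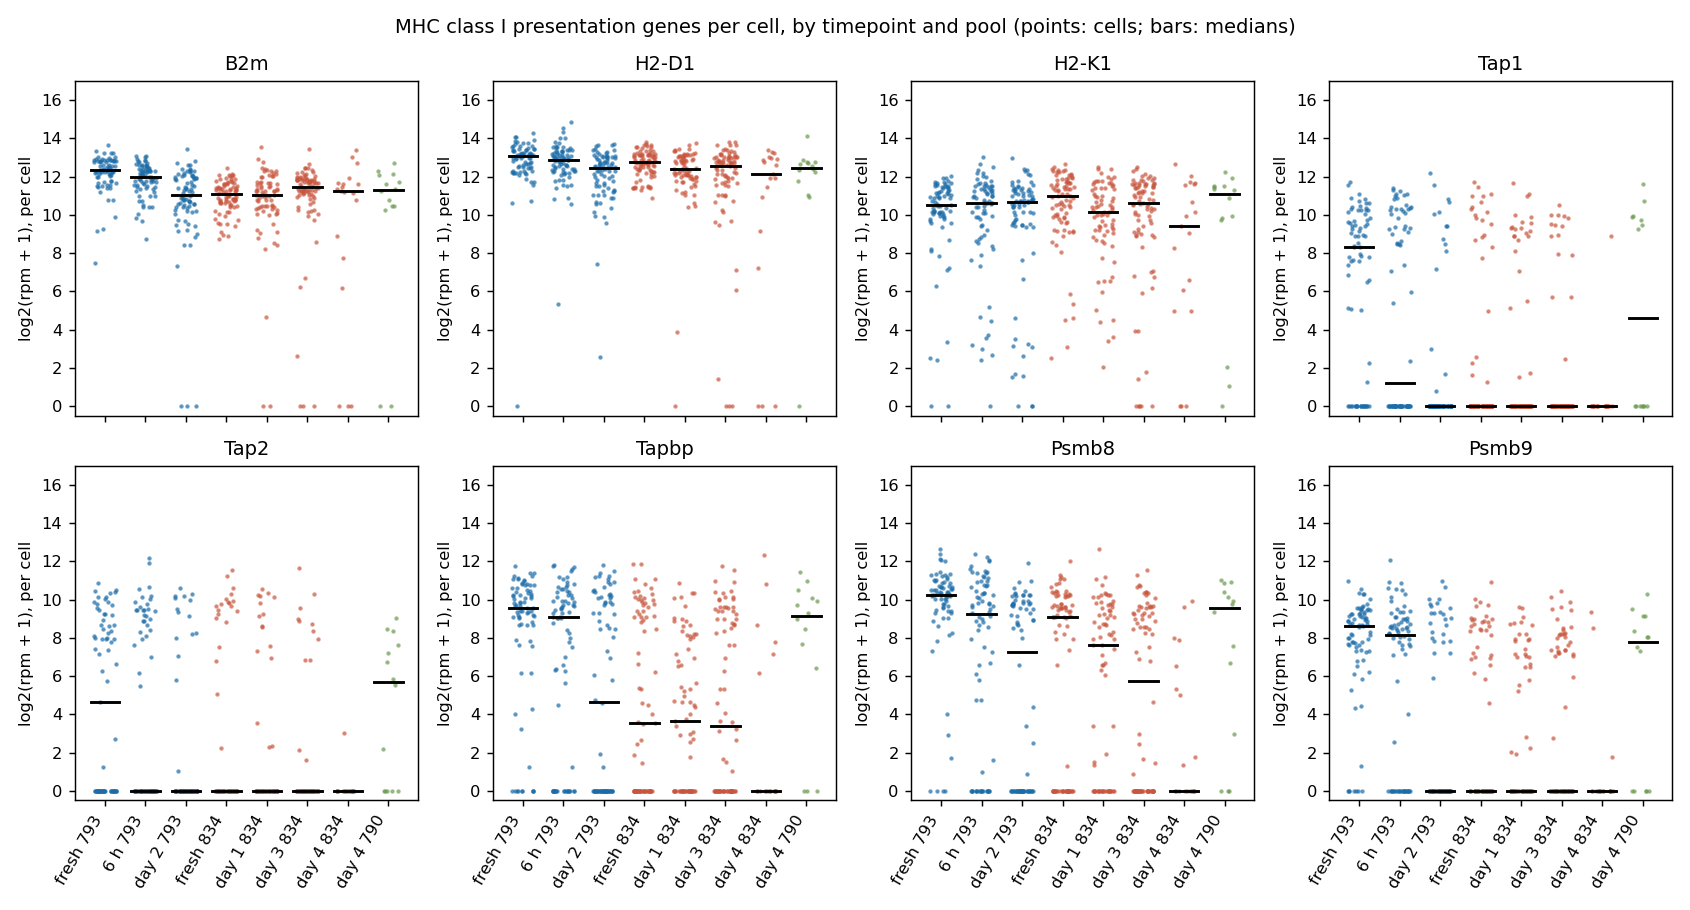
Level of each gene in every cell, as log2(rpm + 1), by timepoint and pool (blue, pool IM793; red, pool IM834; green, day 4 cells with the code IM790). Black bars are medians; most cells lie well above 0 for B2m, H2-D1 and H2-K1, though at day 4 in pool IM834 3 of 19 cells are at 0 for each of them, while the 5 other genes split into cells at 0 and cells with clear signal.

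Between cell types, B2m was lower in B cells than in the C1qb gate, whose cells carry macrophage markers. Summed over the cells of a gate, B2m in the B gate stood at 1785 CPM in fresh cells, 2513 CPM after 6 h, 908 CPM after 1 day, 1291 CPM after 2 days and 1366 CPM after 3 days. In the C1qb gate it stood at 4090 CPM in fresh cells, 4627 CPM after 6 h, and 3539, 4337, 3353 and 2843 CPM after 1, 2, 3 and 4 days. The lowest C1qb value lay above the highest B value. How many of all genes lay apart in this way was not counted, here or in the comparisons below.

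The test across all genes used these sums, with 5 timepoints of the B gate and 6 of the C1qb gate, timepoint as a term, edgeR's quasi-likelihood test and Benjamini-Hochberg adjustment over 12085 genes. B2m was higher in the C1qb gate than in the B gate by 1.69 on the log2 scale (SE 0.323, adjusted p = 0.0029, higher in 5 of 5 shared timepoints). It was the sole member called in this comparison, 1 of 8, and none was lower; of all genes 2.13% were called higher and 0.662% lower. The members' median log2 difference was 0.66 and that of all genes 0.74. Over the alternatives, which included leaving out each timepoint, the difference of B2m ran from 1.49 to 1.85 and its adjusted p from 0.0023 to 0.022. The fresh sum of the B gate came from pool IM834 alone, while that of the C1qb gate held 7 cells of pool IM793, at 5379 CPM of B2m, and 8 of pool IM834, at 2663 CPM. With sums and the model term by timepoint and pool, added after seeing the data, the difference was 1.49 (adjusted p = 0.0051), and the lowest C1qb sum stayed above the highest B sum of 2513 CPM. The median genes read per cell ran from 1134 to 3738 over the groups of the C1qb gate and from 1578 to 1911 over those of the B gate, and the part of this in the result was not tested.

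The other comparisons between gates gave no call among the 8 genes. At an unadjusted p under 0.05 edgeR gave 2 of the 8 for B against T and 1 for C1qb against T. It gave 1 for Csf1r against C1qb and 3 for S100a8 against T. Of all 12085 genes, 1271, 2030, 1254 and 2516 passed that threshold in the same order. DESeq2 with adjustment called 0, 0, 0 and 1 of the 8, beside 1871, 2349, 1597 and 4338 of all genes. For B against T the members' median log2 difference was -0.48 and that of all genes -0.09, with 0.712% of all genes called higher and 0.248% lower. B2m had a log2 difference of -0.81 (SE 0.316, adjusted p = 0.332) and H2-D1 of -0.50 (SE 0.244, adjusted p = 0.472). H2-D1 was lower in the B gate at 5 of 5 timepoints, at 3501 to 6183 CPM against 6811 to 9043 CPM in the T gate, with no overlap. Psmb8 did not overlap either, at 137.1 to 683 CPM in the B gate and 712 to 975.1 CPM in the T gate, with an adjusted p of 0.778 by the same test. The other members overlapped. Since the share of all genes without overlap was not counted, these ranges are description and no difference is drawn from them.

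For C1qb against T, 2.84% of all genes were called higher and 0.885% lower, and 0 of the 8 genes. B2m was nearest, at a log2 difference of 0.88 (SE 0.318, adjusted p = 0.138), and it was higher in 5 of 5 shared timepoints. The members' median was 0.23 and that of all genes 0.71. For Csf1r against C1qb, where 0.0496% of all genes were called higher and 0.0496% lower, H2-K1 had the smallest p, with a log2 difference of -1.21 (SE 0.442, adjusted p = 0.411), lower in 5 of 5 timepoints. In all, 12 genes passed that comparison.

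S100a8-gated cells carried much H2-D1 and little H2-K1. H2-D1 came to 11677 CPM in fresh cells and 11187 CPM at 6 h, above every T gate sum, but to 5345 CPM at day 1, below every one. H2-K1 came to 1231, 937 and 190 CPM in the same 3 sums, under the T gate's 2092 to 3057 CPM without overlap, where the share of all genes without overlap was not counted. Against T, 2.09% of all genes were called higher and 0.885% lower, and 0 of the 8: H2-D1 differed by 0.84 (SE 0.290, adjusted p = 0.133) and H2-K1 by -1.16 (SE 0.547, adjusted p = 0.232). With day 1 left out, which leaves 2 sums in the S100a8 gate, the difference of H2-D1 was 1.24 (adjusted p = 0.0085); over all alternatives its log2 difference ran from 0.53 to 1.27 and its adjusted p from 0.0085 to 0.543. The S100a8 gate at day 1 held 5 cells, with a median of 329110 counts against 653380 and 869350 in the fresh and 6 h cells. These 5 cells came from pool IM834 and the other sums from pool IM793, so that preservation and pool cannot be told apart here.

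**Figure D2:**
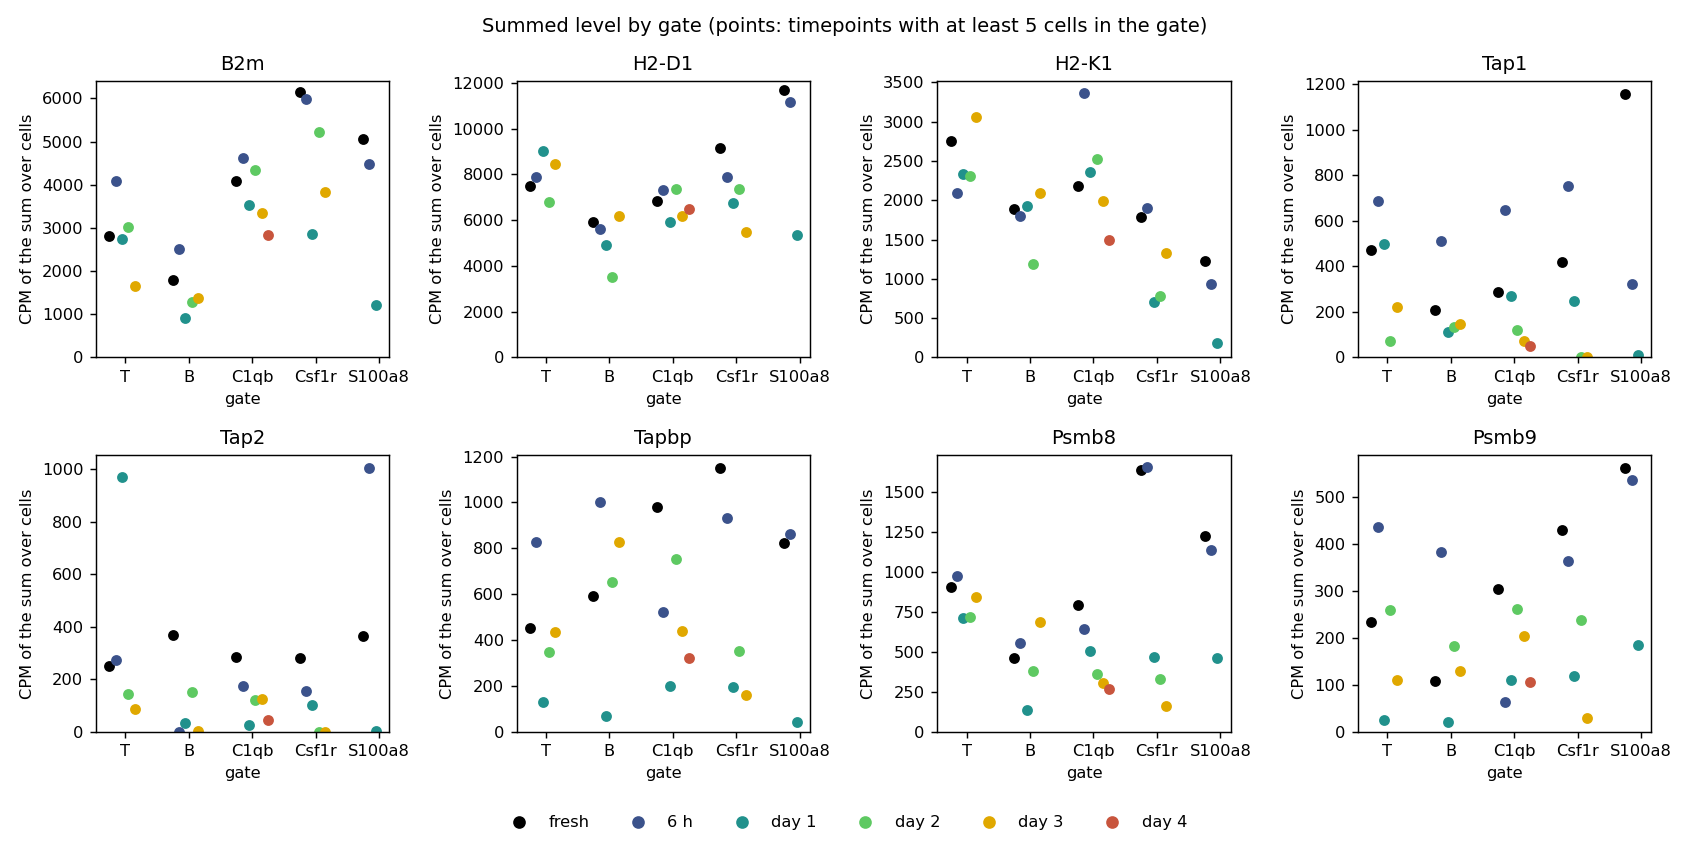
Summed level of each gene in CPM by gate, with 1 point for each timepoint that had at least 5 cells in the gate (colours give the timepoint). B2m in the B gate lies between 908 and 2513 CPM and in the C1qb gate between 2843 and 4627 CPM, without overlap; the transporter and immunoproteasome genes spread widely over timepoints within most gates.

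Medians over single cells, pooled over timepoints and pools, gave an order of the gates for each abundant gene. For B2m it ran from 1195 rpm in the B gate to 2863 in the T gate, 3443 in the C1qb gate, 4131 in the S100a8 gate and 5158 rpm in the Csf1r gate. For H2-D1 it ran from 4394 rpm in the B gate to 6544 in the C1qb gate, 8041 in the Csf1r gate, 8113 in the T gate and 10568 rpm in the S100a8 gate. For H2-K1 the order was different, from 346 rpm in the S100a8 gate to 1351 in the Csf1r gate, 1425 in the B gate, 1866 in the C1qb gate and 2464 rpm in the T gate. None of the neighbours in these orders that were tested passed, and the sums of neighbouring gates overlapped for each of these genes. At day 1 the B2m median was 2584 rpm in the Csf1r gate against 3380 in the C1qb gate. In the S100a8 gate it was 1059 rpm that day, against 2853 in the T gate. Both pairs kept the pooled order of B2m at their other shared timepoints.

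Pooled over timepoints, the rarer genes were read most often in Csf1r-gated cells and least often in B cells. Psmb9 was read in 68.1% of the cells of the Csf1r gate and 37.8% of the B gate, Psmb8 in 79.2% and 45.9%, and Tapbp in 77.8% and 58.1%. Tap1 was read in 48.6% of the Csf1r gate and 20.3% of the B gate, and Tap2 in 34.7% and 14.9%, where the S100a8 gate with 37.5% and the T gate with 35.6% were higher than Csf1r. No test was made over cells. The groups differ in timepoint as well, since 29 of the 72 Csf1r-gated cells were fresh cells of pool IM793 and none of the B cells were. In fresh cells and at day 1 each gene was read more often in the Csf1r than in the B gate, and at 6 h the order was mixed. At day 2 Tap1, Tap2, Psmb8 and Psmb9 were read in 0%, 0%, 20% and 20% of 5 Csf1r-gated cells. In 29 B gate cells they were read in 10.3%, 17.2%, 44.8% and 31%. Day 3 showed the same turn for these genes, and Tapbp kept the pooled order on both days.

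The fresh cells of the 2 pools differed in several of these genes. B2m came to 5226 CPM in fresh cells of pool IM793 (exact Poisson interval 5206 to 5246, counting error only) and 2290 CPM in those of pool IM834, a log2 ratio of 1.19. Psmb9 differed by 1.46, Tapbp by 1.20, Psmb8 by 1.08 and Tap1 by 1.00, all higher in pool IM793. H2-D1 with 0.27 and H2-K1 with -0.35 stayed within 2-fold, as did Tap2 with 0.56. Thus 5 of the 8 genes were at least 2-fold higher in pool IM793 and 0 at least 2-fold lower, where 19.1% of 9577 genes were higher by that size and 28.2% lower. The median of the 8 was 1.04 and that of all genes -0.25. There is 1 sample on each side, and no test was made.

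The share of cells with a read showed the same gap. Psmb9 was read in 90.7% of fresh cells of pool IM793 (81.7 to 96.2%) and 38.3% of those of pool IM834 (27.7 to 49.7%), and Tap1 in 73.3% and 28.4%. When every cell was thinned to 100000 counts, the shares for Psmb9 were 89.2% and 37.5%, so the gap was as large at equal depth. The median cell had 2649 genes read in pool IM793 and 1843 in pool IM834. The cell types were different too: pool IM793 held 9 T gate and 29 Csf1r gate cells and no B gate cell among its fresh cells, and pool IM834 held 43, 4 and 16. Within the T gate Psmb9 was read in 88.9% of 9 cells and 41.9% of 43 cells, and within the C1qb gate in 85.7% of 7 and 25% of 8. The summed level of Psmb9 differed between the pools in the C1qb gate, at 501 against 84.1 CPM, and was nearly equal in the T gate, at 235.4 against 231.7 CPM. B2m was higher in pool IM793 in both gates, at 3924 against 2526 CPM in the T gate and 5379 against 2663 CPM in the C1qb gate. H2-D1 was lower in pool IM793 in the T gate, at 5715 against 7941 CPM, and higher in the C1qb gate, at 7984 against 5539 CPM. Pool, animal and genes read per cell cannot be told apart here.

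After 6 h of preservation the summed levels of the 8 genes lay within 2-fold of fresh, while means over cells were lower. In pool IM793 their log2 ratios ran from -0.43 for Psmb8 to 0.10 for H2-K1, with a median of -0.09 beside 0.16 for all 10342 genes. None of the 8 was 2-fold higher or lower, where 21.5% of all genes were higher by that size and 15.2% lower. As a mean over cells of log2(rpm + 1), which gives cells at 0 more weight, the members' median was -1.12, with Psmb8 at -2.38, Tap1 at -1.73 and Psmb9 at -1.65. The share of cells with a read was lower too: 50% against 73.3% for Tap1, 68.4% against 90.7% for Psmb9 and 75% against 94.7% for Psmb8. Genes read per median cell went from 2649 to 2136 between the same groups.

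At day 2 of preservation in pool IM793 Tap1, Tap2 and Psmb8 were more than 2-fold below their fresh summed level. Tap1 stood at 188.1 CPM against 593 CPM in fresh cells, Tap2 at 130 against 327 CPM and Psmb8 at 538 against 1410 CPM, with log2 ratios of -1.66, -1.34 and -1.39. These 3 of the 8 genes were at least 2-fold lower and 0 at least 2-fold higher, beside 18.4% and 27.1% of 9860 genes. Psmb9 had a log2 ratio of -0.94, B2m of -0.94, Tapbp of -0.70 and H2-D1 of -0.56. H2-K1, at 1819 against 1771 CPM, was the sole member at or above its fresh summed level. The median of the 8 was -0.94 and that of all genes 0.23. As means over cells of log2(rpm + 1) all 8 genes were lower, from -4.88 for Tap1 to -0.55 for H2-K1, so that H2-K1 turned sign.

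Fewer cells had a read as well. Tap1 was read in 19.2% of day 2 cells (11.2 to 29.7%) against 73.3% of fresh cells (61.9 to 82.9%), and Psmb9 in 32.1% against 90.7%. In the T gate Tap1 was read in 66.7% of 9 fresh cells, 52.6% of 19 cells at 6 h and 6.25% of 16 cells at day 2. In the same gate Psmb5, a subunit of the standard proteasome that is no member, was read in 77.8%, 63.2% and 18.8%, and the median genes per cell were 2198, 2132 and 1695. Over all cells the summed level of Psmb6, another standard subunit, was 192.2 CPM in fresh cells and 193.4 CPM at day 2. It was read in 60% of fresh and 30.8% of day 2 cells, and the summed level of Psmb5 was 71.2 and 49.3 CPM. The part of lower gene detection in this result was not tested. Day 2 held 29 B gate cells where fresh cells of the pool held 0, so the levels were also set side by side within gates.

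Within gates of pool IM793, Tap1 stood at 71.9 CPM at day 2, all from 1 cell, against 509 CPM in fresh cells in the T gate, and at 120.6 against 522 CPM in the C1qb gate, where 1 cell held 70.8% of the day 2 reads. Tap2 stood at 118.3 against 489 CPM in the C1qb gate, with reads in 4 of 15 and 6 of 7 cells. In the T gate it was at 141.6 against 322 CPM, with 3 cells read on each side, of which 1 held 75.3% of the fresh reads and 1 held 53.4% of those of day 2, so no direction is drawn from it. The Csf1r gate held 5 cells at day 2, none with a read of Tap1 or Tap2 and 1 with a read of Psmb8. Psmb8 was at 716 against 985 CPM in the T gate and 359 against 1068 CPM in the C1qb gate. Psmb9 was lower in the C1qb gate, at 261.3 against 501 CPM. In the T gate its sums were 259.03 and 235.4 CPM, but it was read in 25% of day 2 cells and 88.9% of fresh cells, with a median of 0 against 240.3 rpm, and 1 cell held 58.3% of the day 2 reads. H2-K1 was near its fresh level in the T gate, at 2313 against 2256 CPM, and lower in the 5 cells of the Csf1r gate, at 782 against 1905 CPM. The groups of the T gate were 9 fresh and 16 day 2 cells and those of the C1qb gate 7 and 15, and no test was made.

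In pool IM834, at day 1 the log2 ratios ran from -1.40 for Tapbp to 0.02 for B2m, with a median of -0.51 beside -0.08 for all genes. Tapbp, at 167.4 against 441 CPM, was the 1 gene at least 2-fold lower, and 0 were higher by that size, beside 21% and 20% of 9488 genes. The share of cells with a Tapbp read was 60% at day 1 and 56.8% in fresh cells, so cells with a read were as frequent while the summed level was lower. Cell types differed between these groups: the T gate held 7 cells at day 1 and 43 fresh cells, the C1qb gate 22 and 8, and the Csf1r gate 11 and 4, and the part of this in the ratios was not tested.

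At day 3 B2m stood at 2893 against 2290 CPM, H2-D1 at 6186 against 7025 CPM and H2-K1 at 2044 against 2258 CPM. Tap1 with a log2 ratio of -1.31 and Tap2 with -1.24 were the 2 genes at least 2-fold lower, and 0 were higher by that size, beside 22.4% and 21.1% of 9321 genes. The median of the 8 was -0.16 and that of all genes -0.08. As means over cells of log2(rpm + 1) all 8 genes were lower. B2m was at -0.16 and Psmb9 at -0.08 by that measure, where their log2 ratios of sums were 0.34 and 0.07. Cells of the C1qb gate made up 54 of 82 cells at day 3 and 8 of 81 fresh cells, so the levels within gates are given too. In the T gate Tap1 was at 220.2 CPM at day 3 against 462 CPM, from 3 of 7 day 3 cells, of which 1 held 48.9% of the reads. In the B gate it was at 145.5 against 209.8 CPM, from 1 of 5 day 3 cells and from 4 of 16 fresh cells, of which 1 held 65.4% of the reads. In the C1qb gate it was at 72.1 against 26.2 CPM, from 9 of 54 and 1 of 8 cells. No direction is drawn for Tap1 from any of these gates. Tap2 was at 85.9 against 229.2 CPM in the T gate, where 1 cell held 99.7% of the day 3 reads, and at 124.4 against 57.6 CPM in the C1qb gate, where 1 fresh cell held every read. In the B gate 1 of 5 day 3 cells had a read of Tap2, at 1.06 CPM in sum, which is too few reads for a ratio. Signs of RNA quality moved with the group: Ptprc was read in 80.5% of day 3 cells and 97.5% of fresh cells, and the median cell had 1672.5 and 1843 genes read. In the C1qb gate Ptprc was read in 77.8% of day 3 cells and 100% of fresh cells, with medians of 1693.5 and 2221 genes, and their part in the result was not tested.

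At day 4 only 19 cells of pool IM834 were left to compare. B2m stood at 3042 CPM, H2-D1 at 6450 and H2-K1 at 1708 CPM, with log2 ratios of 0.41, -0.12 and -0.40. As means over cells of log2(rpm + 1) the 3 differences were -1.70, -2.56 and -2.44, so that B2m turned sign, and each gene was read in 84.2% of day 4 and 100% of fresh cells. The median cell had 691 rpm of H2-K1 at day 4 and 2005 rpm in fresh cells. The T gate held 0 of the day 4 and 43 of the 81 fresh cells, and the C1qb gate 10 and 8. Psmb8 at -1.97 and Tap1 at -3.62 were at least 2-fold lower, 2 of the 7 genes that had 50 or more counts on each side, and 0 were higher by that size, beside 22.8% and 33.1% of 4949 genes. A single cell held every read of Tap1, and Tap2 had too few reads for a ratio. The median cell had 1130 genes read and Ptprc was read in 42.1% of these cells, against 97.5% of fresh ones. The 14 day 4 cells with the code IM790 had 2987 genes read in the median cell and had Tap1 in 50%, Tap2 in 64.3% and Psmb9 in 64.3% of cells, and no fresh cells carry that code. In pool IM793 the same shares were 73.3%, 53.3% and 90.7% in fresh cells and 50%, 39.5% and 68.4% in 6 h cells, and in fresh cells of pool IM834 they were 28.4%, 24.7% and 38.3%.

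**Figure D3:**
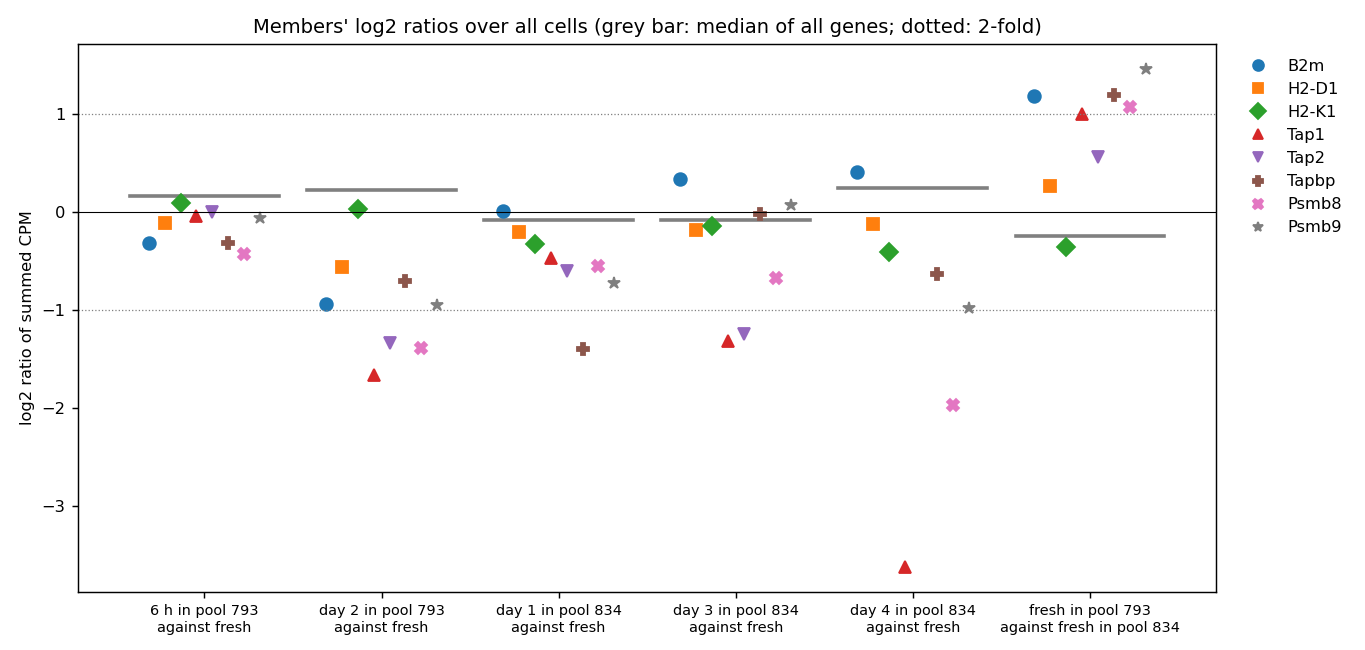
Log2 ratios of summed CPM for the 8 genes over all cells, for each preserved group against fresh cells of its pool and, at the right, for the fresh cells of the 2 pools. Grey bars mark the median of all genes and dotted lines a 2-fold difference; the median of the 8 genes is -0.94 at day 2 in pool IM793 and 1.04 between the fresh groups.

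Few gates held 10 cells in both a preserved and a fresh group. In the B gate of pool IM834, 4 of the 8 genes were at least 2-fold lower at day 1 and 0 higher, beside 24.1% and 24.2% of 4170 genes, with Tap2 at 33.4 against 369 CPM, Tapbp at 69.2 against 594 CPM, Psmb9 at 19.7 against 107.7 CPM and Psmb8 at 137.1 against 458 CPM. B2m stood at 908 against 1785 CPM there, and H2-K1 at 1927 against 1884 CPM. The groups were 14 and 16 cells. Tap2 rested on 1 cell at day 1 and on 4 fresh cells, of which 1 held 44.7% of the reads, so its ratio hangs on single cells; the other 3 genes had reads in 4 to 10 cells on each side, and 1 cell held 54.9% of the day 1 reads of Psmb9.

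In the Csf1r gate of pool IM793 none of the 8 summed levels differed 2-fold at 6 h, beside 23.9% of 6213 genes higher and 17.8% lower, and the median was -0.17. As means over cells of log2(rpm + 1) all 8 were lower there, from -2.73 for Psmb8 to -0.24 for B2m. Psmb8 and Psmb9 were each read in 71.4% of 6 h and 100% of fresh cells of that gate. In the S100a8 gate 1 gene was 2-fold higher, Tap2 with a log2 ratio of 1.47, and 1 lower, Tap1 with -1.85, beside 26% and 25.1% of 2785 genes, while the other 6 lay between -0.39 and 0.07. Both subunits of the transporter thus stood in opposite order in the same 13 and 12 cells, each resting on few cells with a read.

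The balance of the heavy chains differed between the gates. H2-K1 made up 21.9% of the reads of H2-K1 and H2-D1 over all cells. The share was 24.7% in the T gate, 25.8% in the B gate and 25% in the C1qb gate, 17.1% in the Csf1r gate and 7.75% in the S100a8 gate. Within the S100a8 gate it was 9.54% in fresh cells, 7.73% at 6 h and 3.43% at day 1. In the B gate it lay between 24.2% and 28.1% in every group of at least 5 cells, and no value of the S100a8 gate reached the lowest of the T, B or C1qb gates, 17.2%. The Csf1r gate overlapped both: its share was 9.50% at day 1 in pool IM834 and 9.61% in the 5 cells of day 2, next to the fresh S100a8 value, and 17% in fresh cells, 19.4% at 6 h and 19.5% at day 3. These shares were not tested.

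Over all cells the share was 17.3% in fresh cells, 19.4% at 6 h and 24% at day 2 in pool IM793, and 24.3%, 22.9%, 24.8% and 20.9% in fresh, day 1, day 3 and day 4 cells of pool IM834. Between the fresh cells of the pools the share within gates was 28.3% in pool IM793 and 26.6% in pool IM834 for the T gate, and 27.5% and 18.3% for the C1qb gate, with 7 and 8 cells. Fresh cells of pool IM793 held 29 Csf1r gate and 12 S100a8 gate cells, and the part of this in the share over all cells was not tested. Single cells ranged from 0% to 99.8%, and 15 of the 490 cells with at least 10 such reads had more H2-K1 than H2-D1.

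**Figure D4:**
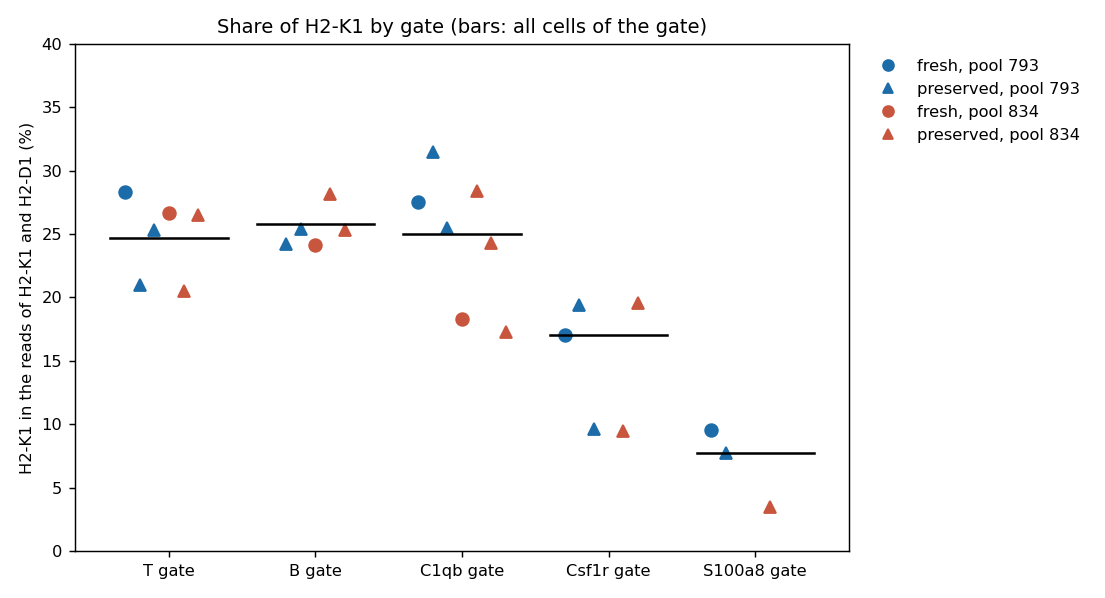
Share of H2-K1 in the summed reads of H2-K1 and H2-D1 by gate, for groups of at least 5 cells (circles, fresh; triangles, preserved; blue, pool IM793; red, pool IM834; black bars, all cells of the gate). The S100a8 gate lies between 3.43% and 9.54%, below the T, B and C1qb gates, and the Csf1r gate between 9.50% and 19.5%.

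The immunoproteasome subunits were compared per length with the standard subunits that they replace, Psmb5 for Psmb8 and Psmb6 for Psmb9. Psmb8 made up 80.4% of the summed level of Psmb8 and Psmb5 per exon length, and Psmb9 43% of that of Psmb9 and Psmb6. The length was the union of exons over all GENCODE transcripts. It was 3381 bases for Psmb8, 899 for Psmb5, 3660 for Psmb9 and 1872 for Psmb6. By reads alone Psmb9 exceeded Psmb6, at 91480 against 62055, so its place below Psmb6 depends on that length. Both shares were highest in the S100a8 gate, at 94.1% and 86.1%, and lowest in the B gate, at 65.1% and 35.1%. Psmb5 was read without Psmb8 in 41 cells, and in the S100a8 gate in 0 cells, where 21 had Psmb8 without Psmb5.

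In pool IM793 the share of Psmb8 was 84% in fresh cells, 77.9% at 6 h and 74.4% at day 2. In pool IM834 it was 86.4% in fresh cells, 81.3% at day 1 and 84.5% at day 3. That of Psmb9 was 53.7%, 46.6% and 37.5% in pool IM793 and 33.4%, 31.5% and 35.7% in pool IM834. Cell types changed too: over the 3 groups of pool IM793 the B gate, with the lowest shares, held 0, 8 and 29 cells. The S100a8 gate, with the highest, held 12, 13 and 1. The part of this in the shares was not tested. No group had fewer than 64.2% for Psmb8, the value of the 19 day 4 cells of pool IM834.

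Across single cells the levels of the 8 genes were weakly correlated. Other gene pairs read in a like share of cells were not set beside them. Over all 502 cells the 28 pairs of members had a median Spearman's rho of 0.23, from 0.08 for H2-K1 with Psmb9 to 0.48 for B2m with H2-D1. Next came H2-D1 with H2-K1 at 0.37, Psmb8 with Psmb9 at 0.32 and Tap1 with Psmb9, the overlapping genes, at 0.31. The median was 0.12 in the T gate, 0.07 in the B gate (n = 74), 0.18 in the C1qb gate, 0.39 in the Csf1r gate (n = 72) and 0.35 in the S100a8 gate (n = 32). These are descriptions over cells that share libraries and depth. Of the 8 genes Tapbp went most closely with the genes read per cell, at a rho of 0.42, and H2-D1 least, at 0.04.

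Psmb9 was read in 72.1% of the cells with Tap1 and in 37.8% of the 323 without it, and Tap2 in 44.7% and 19.8%. The median depth was 727750 counts in cells with Tap1 and 657130 in cells without. Thinned to 100000 counts, the shares were 70.7% and 38.2% for Psmb9 and 41.9% and 20.2% for Tap2. Most cells with a read of Tap1 had no read of its partner subunit.

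**Figure D5:**
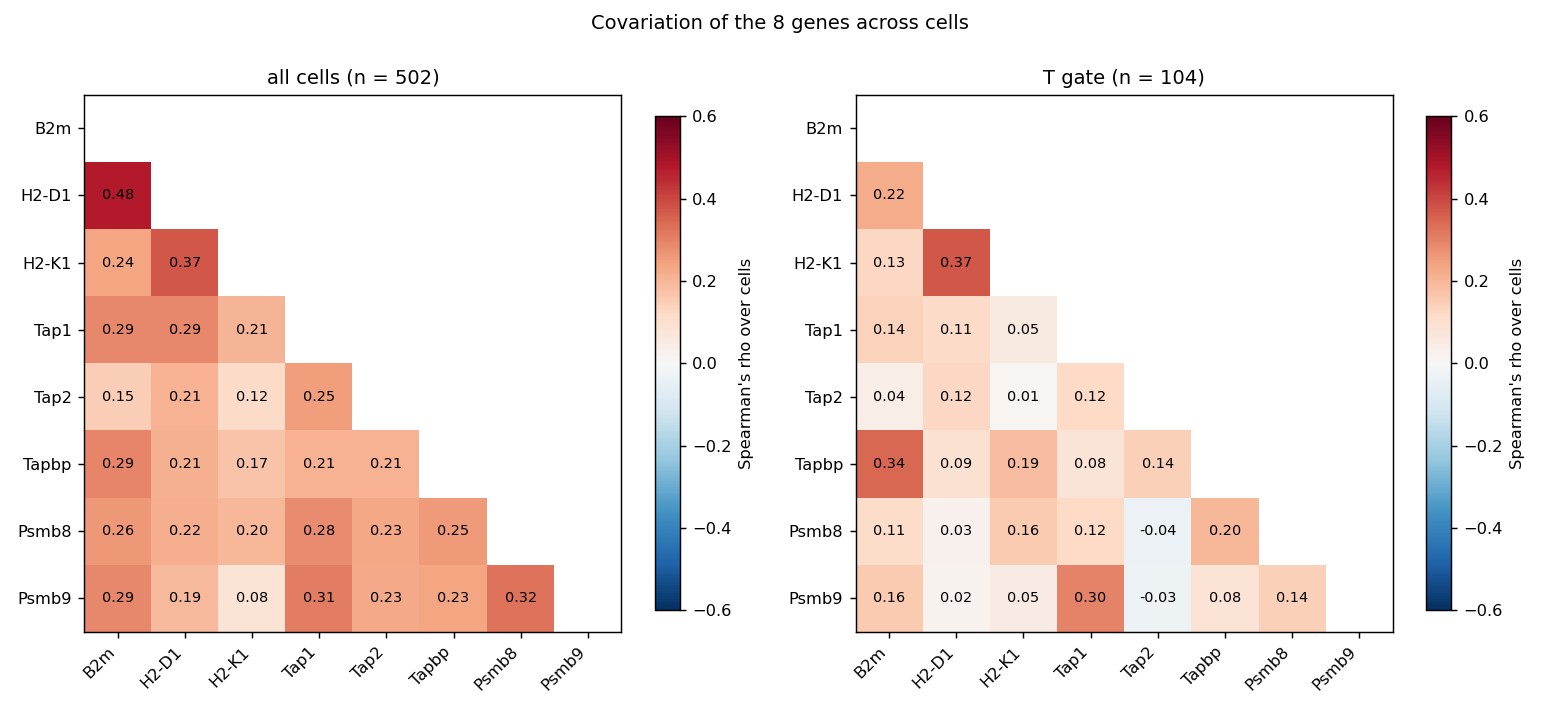
Spearman's rho between the 8 genes across all 502 cells (left) and across the cells of the T gate (right), on the colour scale shown. B2m with H2-D1 is highest over all cells at 0.48, and H2-D1 with H2-K1 is highest in the T gate at 0.37.

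Of 2344 genes read in at least 25% of all cells, those most like each member were sought by Spearman's rho, and named where it reached 0.4. B2m was most like Fcer1g and Tyrobp, adaptors of myeloid receptors, both at 0.49, and the pseudogene Gm10116 at 0.49. H2-D1 was most like H2-Q4, another class I gene, at 0.56, and H2-K1 was most like C920025E04Rik at 0.53, H2-Q10 at 0.51 and H2-Q1 at 0.50. The likeness between class I genes is uncertain, since reads of near-identical genes can be exchanged between them.

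Within the T gate, among 2486 genes, H2-K1 was most like Gm8909 at 0.53, B2m like the pseudogenes Gm10269 and Gm7866 at 0.46 and Rpl36a-ps3 at 0.46, and Psmb9 like Cyba, which encodes a subunit of the phagocyte oxidase, at 0.42. Tap2 and Tapbp had no gene at 0.4 in either set of cells.

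Other genes of the pathway came from a list of 36, of which 35 were in the table and 34 could be tested between gates: more proteasome subunits and activators, chaperones of the loading complex, regulators, non-classical class I genes and class I-like genes. By edgeR's test none passed for B against T or Csf1r against C1qb. At an unadjusted p under 0.05 there were 2 and 0, beside 1271 and 1254 of all 12085 genes. For C1qb against T 3 were higher and 0 lower, Ciita, Hfe and Fcgrt (adjusted p = 0.028, 0.0022 and 0.027), beside 2.84% of all genes higher. For C1qb against B 1 of 34 was higher, Hfe (adjusted p = 0.0033), and for S100a8 against T 1 of 34, Hfe (adjusted p = 0.018), beside 2.13% and 2.09% of all genes, which is near the share of the list. These genes are not part of classical class I loading: Ciita encodes the activator of class II genes, Hfe a class I-like protein of iron sensing and Fcgrt the neonatal Fc receptor.

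Hfe had no read in the sums of the T and B gates, where a count of 0 allows up to 0.0426 and 0.0555 CPM, and it came to 222.5 CPM in the C1qb gate, where 34.7% of cells had a read, and to 14.8 CPM in the S100a8 gate, where 2 cells had one. Fcgrt came to 634 CPM in the C1qb gate and 17.4 CPM in the T gate, and Ciita to 160 CPM in the C1qb gate against 2 reads in all in the T gate. A fitted fold against a group at or near 0 depends on the prior count and is not given.

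Between preserved and fresh cells the list moved in both directions. At day 2 in pool IM793, 11 of 33 listed genes were at least 2-fold lower and 2 higher, beside 18.4% and 27.1% of all genes, with a median log2 ratio of -0.48, and H2-Q7 was lowest at -2.53, counting genes with a read in 50% or more of either group's cells. At 6 h in the same pool 3 of 33 were lower and 3 higher, beside 15.2% and 21.5% of all genes, with H2-T23 highest at 1.10. In pool IM834 Canx, the chaperone calnexin, was highest on each of days 1, 3 and 4, at 1.55, 1.32 and 1.88, while H2-Q2 was lowest at day 1 and day 3, at -2.02 and -2.08. These 3 comparisons share the same fresh cells. Between the fresh cells of the pools 11 of 33 were at least 2-fold higher in pool IM793 and 3 lower, beside 19.1% and 28.2% of all genes, with Psme2b highest at 2.52.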

How the data were processed

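Sorted Cd45+ kidney cells were sequenced 1 by 1 with an adapted SmartSeq2 protocol, without molecular identifiers. The deposited values are raw counts per gene and cell: the authors trimmed reads to 75 bases, depleted duplicates with picard MarkDuplicates, aligned with STAR to GRCm38, counted with HTSeq without regard to strand and removed cells under 1000 reads (the sources used here give no tool versions). Cells held 1759 to 1895431 counts, median 695188, and 97 rows naming no gene (0.1396% of counts) were left out. Without identifiers, copies and separate molecules cannot be told apart with certainty, so Poisson intervals cover counting error only. Binomial intervals treat cells as independent draws and leave out the spread between animals and pools. Doublets were not called, and cells in more than 1 gate were kept out of the gates.

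Gates required 10 reads of Cd3e, Cd79a, C1qb, Csf1r or S100a8. Counts were summed per timepoint and gate (at least 5 cells) and tested with edgeR 4.0.16 in R 4.3.3 (TMM, filterByExpr, gate plus timepoint, quasi-likelihood test, Benjamini-Hochberg over 12085 genes, adjusted p under 0.05), without the 5 gate genes. The p-values measure the spread between these sums, which may be technical. Preserved and fresh cells, with 1 sample a group, were compared as log2 ratios of summed CPM, without a test, for genes that had 50 or more counts on each side. Named genes were the 8 members, genes of the fixed pathway list past the test or furthest from 0, and those with a rho of at least 0.4, of which 2 are not reported here. DESeq2 1.42.0, other normalization, filters, gate minimums and left-out timepoints were alternatives, as were sums by timepoint and pool, added after seeing the data. The test was checked on simulated data. The members and lists were chosen with earlier results of these data known.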

Additional observations from a re-analysis of the deposited data

Results flagged for a closer look

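In all, 2 sums stood apart from the other timepoints of their gate by Dixon's test, among 32 sets of timepoints tested, where chance alone marks about 1 in 20. H2-K1 in the B gate was lowest at day 2, at 1194 CPM, where the other 4 timepoints lay between 1795 and 2098 CPM. Tapbp in the B gate was lowest at day 1, at 69.2 CPM.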

How the results depend on the processing

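No paired analysis was possible because the replicate numbers only name cells and no label numbers samples across gates or timepoints; timepoint itself, which sets gates of the same timepoint side by side, was a term of the test, and its removal is given here. The call of B2m between the C1qb and B gates stood under every alternative. Of the genes tested for B against T, C1qb against T, C1qb against B, Csf1r against C1qb and S100a8 against T, the share called was 0.960%, 3.72%, 2.79%, 0.0993% and 2.98%. It was 15.5%, 19.4%, 19.7%, 13.2% and 35.9% with DESeq2, and 1.51%, 6.20%, 4.53%, 0.207% and 4.71% without the timepoint term. With at least 10 cells per sum the first 4 shares were 0.496%, 1.6%, 1.35% and 0.0305%, and with a gate minimum of 1 read Csf1r against C1qb gave 0.0421%. Leaving out each timepoint gave 0.571% to 0.976%, 1.96% to 3.74%, 1.31% to 2.78%, 0.0313% to 0.1001% and 1.12% to 3.01%. The calls of B against T were 86 higher and 30 lower, and 850 and 1021 with DESeq2. Those of Csf1r against C1qb were 6 and 6, then 383 and 1214 with DESeq2 and 3 and 5 with RLE scaling. For S100a8 against T, where 2.09% of genes were higher and 0.885% lower, DESeq2 called 1030 higher and 3308 lower.

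For S100a8 against T, 1 member passed with DESeq2 (Psmb9), with RLE scaling, without the timepoint term and with at least 10 cells per sum (H2-D1), and 0 to 1 on leaving out a timepoint. Signs of uncalled members turned. With at least 10 cells per sum Tap2 came to 0.14 for B against T and -0.24 for C1qb against B, Psmb8 to 0.031 and Tap1 to 0.074 for C1qb against T, and for Csf1r against C1qb B2m to 0.036, H2-D1 to 0.076, Psmb9 to 0.24, Tap1 to 0.30 and Tap2 to 0.55. In that last comparison B2m came to 0.15, Psmb9 to 0.21 and Tap1 to 0.32 without the timepoint term, B2m to 0.038, H2-D1 to 0.014 and Tapbp to 0.038 with a gate minimum of 1 read, and H2-D1 to 0.099, Psmb9 to 0.34 and Tapbp to 0.028 with 50 reads. H2-D1 came to -0.0045 for C1qb against T with 50 reads, and Tap1 to -0.094 for S100a8 against T without a filter. With sums by timepoint and pool Tap1 came to -0.23 for C1qb against B and -0.59 for S100a8 against T, and B2m to 0.021 for Csf1r against C1qb. Leaving out a timepoint gave -0.19 to 0.19 for B2m, -0.23 to 0.080 for H2-D1, -0.12 to 0.55 for Psmb8 and -0.50 to 0.33 for Psmb9 in Csf1r against C1qb, -0.0099 to 0.20 for H2-D1 and -1.71 to 0.39 for Tap2 in C1qb against T, -0.0046 to 0.51 for Tap1 in C1qb against B, and -2.25 to 0.86 for Tap1 and -2.22 to 1.80 for Tap2 in S100a8 against T.

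As a mean over cells of log2(rpm + 1), which weighs cells at 0 more, the members' median ratio was -1.12 after 6 h, -3.09, -0.89 and -2.12 on days 2, 3 and 4, 2.78 between the fresh groups, -1.34 in the Csf1r gate and -0.93 in the S100a8 gate. Against fresh cells of both pools it was -0.82 at day 3 and -1.38 at day 4, and within gates, an alternative added after seeing the data, it was 0.33 at day 4, where the C1qb gate alone held 5 cells on each side. The H2-K1 share of fresh cells of pool IM793 was 28.3% in Cd3e-gated cells. The causes were not tested. No difference between preserved and fresh cells was tested.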
